A study of Carassius gibelio with 26 samples.

Results

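The 11 testes described here came from triploid gibel carp (Carassius gibelio) males labelled as warm or at 22 °C, and both sets descend from the same kind of gynogenetic female. They are 11 of the 26 males of the series and were picked by their sample titles, with no measured value. The comparison itself was chosen with earlier results of these data known. The 5 males of group 2 (male 3n group 2) were triploid offspring of a gynogenetic female whose brood turned male over a wide range of temperatures, and the labels give 28 to 31 °C for them. The library names of all 5 end in 31. The 6 males of group 3 (male 3n group 3) were triploid offspring of the same kind of female, sampled at 22 °C. All 11 were 2 years old, had been reared in aquaria, and carried no other treatment named in the labels. The design text gives the temperatures for the activated eggs and the labels for sampling, and the sources used here do not say how long each male stayed at its temperature. The eggs were activated with sperm of Carassius gibelio, Cyprinus carpio or Abramis brama, and the donor species of each male is not given here either.

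Gibel carp reproduces in more than one way. Diploids breed sexually, whereas triploid females lay eggs in which the sperm only starts development and contributes no genome, so that daughters repeat the mother's genome. In many fish the early gonad can be steered toward testis by warm water, and a triploid brood that would be female can then develop as males. A testis holds germ cells at successive stages, from stem cells to sperm, among supporting and hormone-producing cells. In bulk RNA from such a tissue, fewer cells of a type and less RNA per cell cannot be told apart.

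The comparison of group 2 with group 3 asks how testis RNA differs with temperature when ploidy and the kind of mother are shared. Temperature goes wholly with the group, so anything else that does so cannot be told apart from it. Library names hold a second number with no stated meaning. It is 11 in all 5 group 2 males and in group 3 replicates 3 to 6, and 12 in group 3 replicates 1 and 2. Number 11 males therefore offer a comparison of 5 warm with 4 males at 22 °C in which this number is the same. The labels do not say whether males of a group had different mothers, and the p-values measure the spread between males that may be close relatives. Reads were counted on goldfish genes known here by ID only. The marker lists for testis cell types, oocytes, blood, leukocytes, muscle and heat-shock genes had 0 matched members, so the tissue label was not checked against markers and no role is given to any gene.

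Group 2 and group 3 libraries overlapped in depth. Totals ran from 15492277 to 26755794 counts in group 2 and from 20965100 to 27142412 in group 3. Genes holding 50% of the counts numbered 2034 to 2170 in group 2 and 1838 to 2389 in group 3. The median rank correlation was 0.987 within group 2, and group 2 males correlated just as closely with number 12 males and with number 11 males of group 3 (both 0.987). It was 0.991 among number 11 males of group 3, 0.991 between the 2 number 12 males, and 0.988 between these sets. The first principal component held 21.8% of the variance. Its scores overlapped between group 2 and group 3, and the difference in means did not pass the test (exact two-sided permutation p = 0.0931, adjusted over 7 library measures p = 0.247). Number 11 males of group 3 scored from -41.5 to -8.89, below every group 2 male (-8.64 to 42.5), and number 12 males scored 24.5 and 8.13, within the range of group 2. On the second component (18.5% of the variance) number 12 males scored -42.3 and -21.1, below every other male. There group 2 ran from -4.32 to 32.5 and number 11 males from -16.9 to 34.2. Its difference between group 2 and group 3 did not pass the test either (exact two-sided permutation p = 0.154, adjusted p = 0.269).

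Mitochondrial genes encode parts of the respiratory chain and of the mitochondrial translation machinery. They took 0.677%, 0.679%, 0.751%, 0.845% and 0.831% of counts in group 2 replicates 1 to 5. In group 3 replicates 1 to 6 they took 0.794%, 0.781%, 0.901%, 0.821%, 0.801% and 0.888%. Replicates 1 to 3 of group 2 lay below every group 3 male, and replicates 4 and 5 lay among them. The means (± SD) were 0.757% ± 0.0801 over 5 group 2 males and 0.831% ± 0.051 over 6 group 3 males, a difference that did not pass the test (exact two-sided permutation p = 0.104, adjusted p = 0.247). Of 37 mitochondrial features 15 had enough counts to be tested. Their log2 fold changes (group 2 over group 3) ran from -0.44 to 0.10 with a median of -0.19, against 0.01 for all genes. None passed in edgeR at an adjusted p under 0.05. An unadjusted p under 0.05 was found for 5 of the 15, against 4222 of all 37162 features tested (11.4%). The 15 lie on the same mitochondrial sequence and were read in the same libraries, so they are not independent and nothing is read from this share. The feature at 10994 to 11290 of the mitochondrial sequence had the lowest p, with 21.7 ± 5.37 CPM (a count scaled to a common library size) over the 5 group 2 males and 28.3 ± 1.5 CPM over the 6 group 3 males (± SD), a log2 fold change of -0.38 ± 0.13 (SE, edgeR adjusted p = 0.34).

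With all 11 males, 2 of 37162 genes were called (edgeR quasi-likelihood test, Benjamini-Hochberg adjusted p under 0.05), 1 higher and 1 lower in group 2. These are 0.00538% of the genes tested. The gene that rose, ENSCARG00000032792 (chromosome 14, 20534732 to 20544023, minus strand, goldfish annotation ASM336829v1), stood at 1.63, 1.77, 1.87, 1.72 and 2.27 CPM in group 2 replicates 1 to 5. It stood at 0.617, 0.841, 0.689, 0.986, 0.988 and 0.894 CPM in group 3 replicates 1 to 6. The groups did not overlap, and the 2 number 12 males lay within or below the range of the number 11 males at 22 °C. Its log2 fold change was 1.15 ± 0.17 (SE, edgeR adjusted p = 0.0489), with a 95% interval of 0.80 to 1.51. It rested on few reads, with counts of 29 to 62 in group 2 and 15 to 23 in group 3.

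The gene that fell, ENSCARG00000002249 (chromosome 5, 2659272 to 2669664, plus strand), rested on still fewer reads in group 2. Counts were 7, 6, 3, 3 and 9 in group 2, against 26, 27, 24, 16, 20 and 16 in group 3. This came to 0.24 ± 0.0827 CPM over the 5 group 2 males and 0.906 ± 0.215 CPM over the 6 group 3 males (± SD), with every group 2 male below every group 3 male. The log2 fold change was -1.86 ± 0.28 (SE, edgeR adjusted p = 0.0489).

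The genes next in the order of p in each direction, leaving out genes whose mean was under 0 log2 CPM, did not pass the test. ENSCARG00000038529 (scaffold QPKE01006048.1, 14589 to 21794, minus strand) had 22.9, 22.6, 18.5, 15.8 and 23.2 CPM in group 2, against 11.6, 13, 11.7, 13.4, 15.4 and 12.3 CPM in group 3. Its groups met closely without overlap, and the log2 fold change was 0.68 ± 0.11 (SE, edgeR adjusted p = 0.0682). ENSCARG00000007922 (chromosome 20, 10336052 to 10339372, plus strand) had 6.97, 6.75, 5.55, 5.79 and 5.06 CPM in group 2 and 7.33, 9.16, 9.85, 8.44, 10.0 and 9.23 CPM in group 3. It was lower in each group 2 male than in any group 3 male, with a log2 fold change of -0.58 ± 0.11 (SE, edgeR adjusted p = 0.202).

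**Figure D1:**
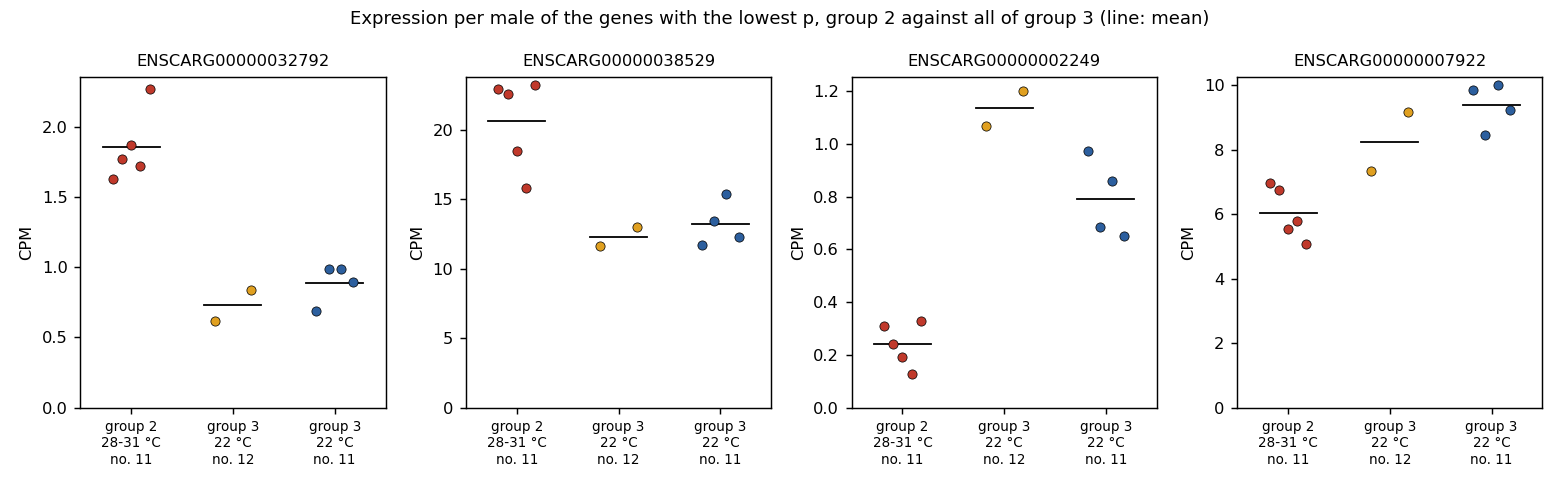
Expression in CPM (linear axes from 0) of 4 genes in each male, as points with the mean as a line, for group 2, number 12 males of group 3 and number 11 males of group 3. In all 4 genes both sets of group 3 males lie on the same side of group 2, as for ENSCARG00000032792 with at most 0.988 CPM in group 3 and at least 1.63 CPM in group 2. The genes were picked for a low p over these 11 males, so this only describes them. Among all genes tested, every group 2 male was above every group 3 male in 0.549% and below in 0.579%.

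These 2 calls were close to the threshold. With each male left out in turn, the adjusted p of ENSCARG00000032792 ran from 0.0395 to 0.265 and passed in 1 of 11 fits, and that of ENSCARG00000002249 ran from 0.058 to 0.265 and passed in 0. The count was 7 without group 2 replicate 4, 1 without group 2 replicate 3 and 0 in the other 9 fits (edgeR, 2557 to 5538 genes at an unadjusted p under 0.05). With all males, DESeq2 called 46 genes, 32 higher and 14 lower, including all 4 genes named above, and limma-voom called 0 (4189 genes at an unadjusted p under 0.05).

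Across all genes the difference between group 2 and group 3 was small in size. The median absolute log2 fold change was 0.12. A change of over 2-fold was fitted for 95 genes, and in 12 of them the groups did not overlap (5 higher and 7 lower in group 2). No gene was at 0 counts in every group 3 male and at 1 CPM or more in every group 2 male, and 0 genes had the opposite pattern. For 35578 genes, 95.7% of those tested, the 95% interval of the fold change lay inside 2-fold in both directions, and for 27518 genes (74%) it lay inside 1.5-fold. This precision followed the level: 78.2% of genes with a mean log2 CPM under 0 had an interval inside 2-fold, against 99.8% of those over 5. In a 4-group model of all 26 libraries, 31740 of 42352 genes had an interval inside 2-fold.

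An unadjusted p under 0.05 was found for 4222 genes (11.4%), of which 2400 were higher and 1822 lower in group 2. The higher ones had a median log2 fold change of 0.43 at a median level of 1.58 log2 CPM, and the lower ones -0.25 at 4.04 log2 CPM. In 204 genes (0.549%) every group 2 male was above every group 3 male, and in 215 (0.579%) every one was below. Their median log2 fold changes were 0.47 and -0.27.

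When group 3 was limited to number 11 males, many more genes were called. Of 37443 genes, 682 (1.82%) were higher and 85 (0.227%) lower in the 5 group 2 males than in the 4 number 11 males at 22 °C (edgeR, adjusted p under 0.05). The changes were modest, with a median absolute log2 fold change of 0.52 and 26 genes over 2-fold. Genes called higher were more frequent at high levels: 5.08% of genes over 5 log2 CPM were called higher, and 0.179% of those under 0. Of the 85 lower genes, 44 were at 3 to 5 log2 CPM (9921 tested) and 21 over 5 (7208 tested). These levels show the reads behind a gene and are not per length. The median exon length was 2411 bases for the higher genes and 1668 for the lower ones, against 2182 for all tested. The higher genes lay on all 50 numbered chromosomes, from 0.575% of the tested genes of chromosome 29 to 3.23% of those of chromosome 34. The 15 mitochondrial features had a median log2 fold change of -0.17 in this fit, and none of them was among the called genes. Of the 15, those starting at 8877, 10994 and 15296 had an unadjusted p under 0.05 (edgeR), against 18.3% of all genes tested. The 15 are not independent, so nothing is read from this. DESeq2 called 1557 genes in this comparison and limma-voom 755. A fit of all 11 males with the number as a term called 820, of which 726 were higher and 94 lower in group 2. Each of the 4 genes named above passed with number 11 males alone (edgeR adjusted p = 0.0189 for each), with log2 fold changes of 1.06 for ENSCARG00000032792, 0.64 for ENSCARG00000038529, -1.67 for ENSCARG00000002249 and -0.64 for ENSCARG00000007922. They were picked for a low p in the fit of all 11 males, 9 of which enter here, so this is no independent support.

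**Figure D2:**
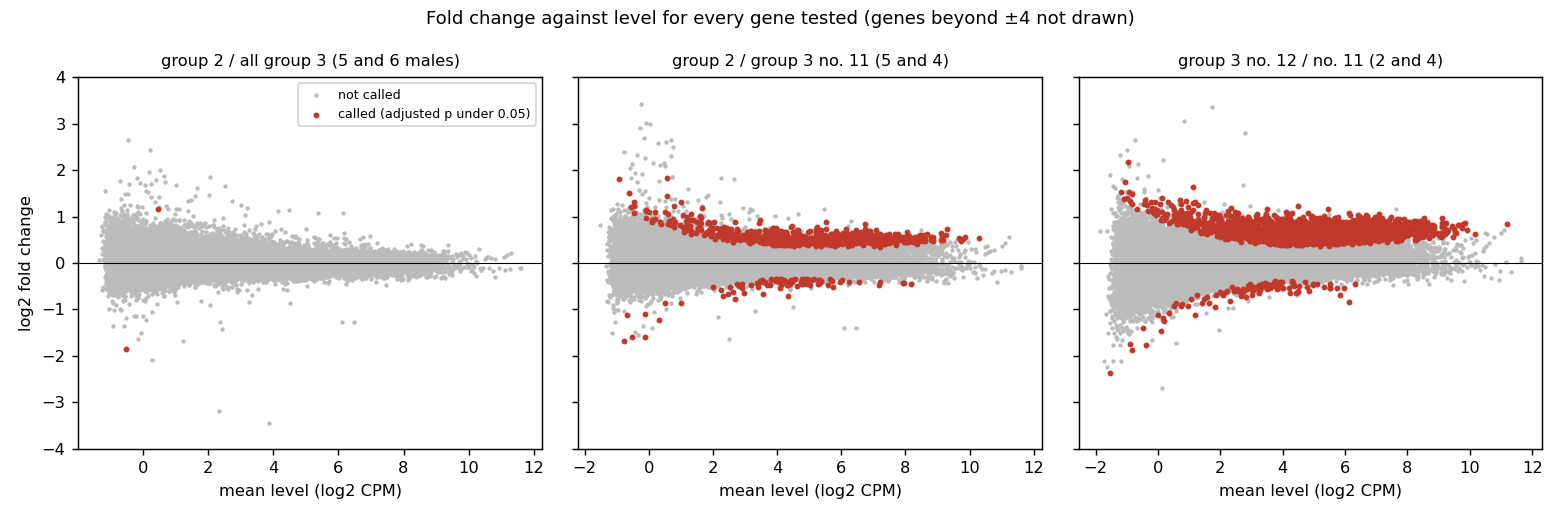
Log2 fold change against mean level (log2 CPM) for each gene tested, with called genes in red. From left to right, group 2 over all of group 3 has 2 called genes, group 2 over number 11 males of group 3 has 767, and number 12 over number 11 males of group 3 has 2095.

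The 2 genes with the lowest p in each direction show the number 12 males beside the others. They were picked after their values were seen. The gene at 10678 to 22826 of scaffold QPKE01003937.1 had 59.8, 62.5, 56.4, 66.2 and 42.1 CPM in group 2, against 25.4, 34.4, 33.3 and 30.4 CPM in number 11 males at 22 °C, a log2 fold change of 0.89 ± 0.12 (SE, edgeR adjusted p = 0.0149). The number 12 males, also at 22 °C, had 72.3 and 65.1 CPM. One of them was above every warm male and the other above 4 of 5.

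The gene at 25827919 to 25860805 of chromosome 17 had 22.4 to 31.7 CPM in group 2 and 13.4 to 17.1 CPM in number 11 males at 22 °C (log2 fold change 0.79 ± 0.11 SE, edgeR adjusted p = 0.0149). Its level in number 12 males was 42.3 and 30.5 CPM. Over all 6 group 3 males its log2 fold change was 0.26 ± 0.30 (SE, edgeR adjusted p = 0.753), and the males at 22 °C spanned 13.4 to 42.3 CPM, below and above the warm ones.

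These 2 lower genes had both number 12 males below all number 11 males. So did 45 of the 85 lower genes (52.9%), against 11.6% of all genes tested. Both were above all number 11 males in 621 of the 682 higher genes (91.1%), against 15.3% of all. Number 11 males took part in the choice of both lists, so nothing is read from these shares. The gene at 13622466 to 13642262 of chromosome 38 had 15.2, 12.3, 15, 17.8 and 17.6 CPM in group 2 and 26.3, 22.5, 23.4 and 29.1 CPM in number 11 males at 22 °C, a log2 fold change of -0.71 ± 0.11 (SE, edgeR adjusted p = 0.0149). Number 12 males had 15.7 and 20 CPM, one within the range of group 2 and the other between the sets. The gene at 8251526 to 8253658 of chromosome 31 had 4.26 to 5.39 CPM in group 2, against 6.56 to 10.5 CPM in number 11 males, and number 12 males had 4.78 and 5 CPM, within the range of group 2 (log2 fold change of group 2 over number 11 males -0.77 ± 0.14 SE, edgeR adjusted p = 0.0187).

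**Figure D3:**
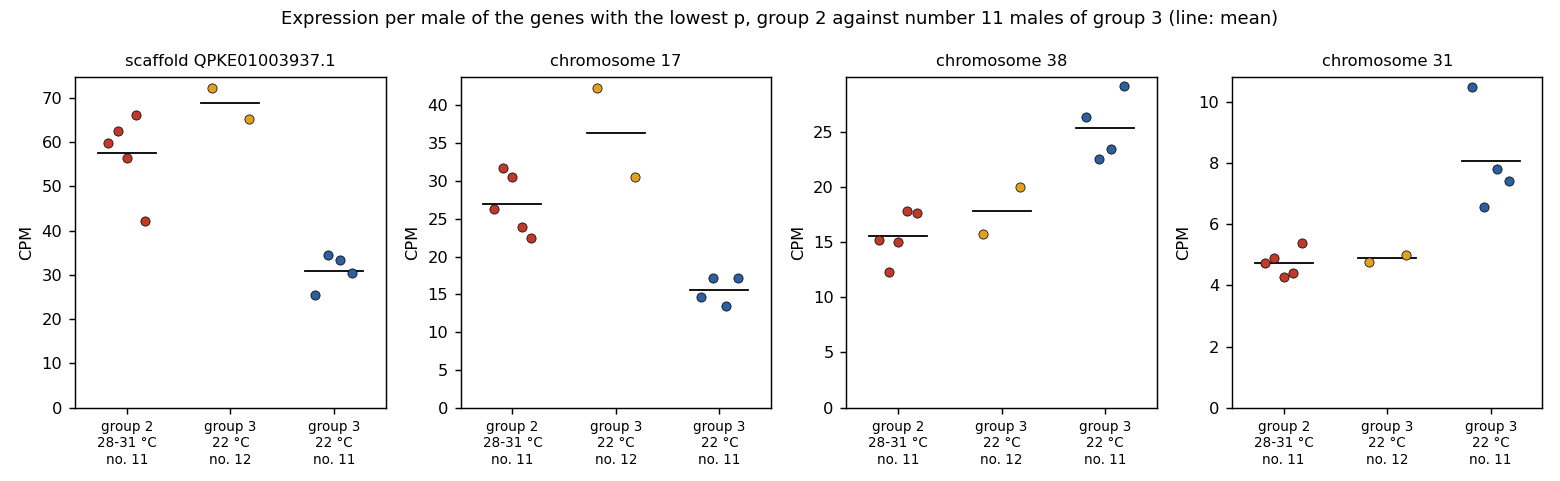
CPM per male (points, linear axes from 0, mean as a line) of the 2 genes with the lowest p in each direction when group 2 was set against number 11 males of group 3. Number 12 males, at 22 °C, lie outside the range of number 11 males in all 4 genes, for example at 72.3 and 65.1 CPM on scaffold QPKE01003937.1, where number 11 males reach 34.4 CPM. The genes were picked against these same number 11 males. Among all genes tested, both number 12 males lay above all number 11 males in 15.3% and below them in 11.6%.

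The lists were also followed as a whole. For each male, the mean log2 CPM of the 4 number 11 males at 22 °C was subtracted gene by gene, and the median over the list was taken. For the 682 higher genes this median was 0.58, 0.73, 0.56, 0.50 and 0.30 in group 2 replicates 1 to 5, and -0.20, 0.25, -0.10 and 0.07 in group 3 replicates 3 to 6. These 9 males chose the genes, so these values only describe the list. Number 12 males had no part in the choice, although the number 11 males that define 0 did, and their medians were 0.92 and 0.61, above 5 of 5 and 4 of 5 group 2 males. Over all tested genes the medians ran from -0.03 to 0.04 in group 2, were -0.01 and 0.00 in number 12 males, and from 0.00 to 0.01 in number 11 males.

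For the 85 lower genes the medians ran from -0.56 to -0.34 in group 2 and from -0.07 to 0.07 in number 11 males. Number 12 males were at -0.29 and -0.20, between the other sets. Genes were chosen by adjusted p and direction against number 11 males. This did not require every warm male to stand apart from them. Of the 682 higher genes, 32 (4.69%) also had every warm male above all 6 males at 22 °C, and of the 85 lower genes 29 (34.1%) had every warm male below all 6, against 0.545% above and 0.574% below among all 37443 genes tested. The lists were chosen on 9 of these 11 males, so nothing is read from these shares. The difference between these shares was not tested.

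The 15 males outside both groups, also 2 years old by the labels, varied in the higher list too. Group 1, triploid males from females whose brood turns male only when warm, was labelled 28 to 31 °C. Its medians were -2.36, -2.27, -0.07, -0.08 and 0.11 in replicates 1 to 5. The first 3 of these males had library names ending in 31 and the others in 28. The 10 diploid males at 22 °C ran from -0.95 to 0.40 with a median of -0.62. The list was chosen for a low p, which favours genes with little spread within group 2 and number 11 males. Nothing is therefore read from the range within these other groups. For the lower list, group 1 ran from -0.93 to -0.47 and diploid males from -0.71 to -0.09. The number 11 males that define 0 took part in choosing both lists, so these values only describe the males.

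**Figure D4:**
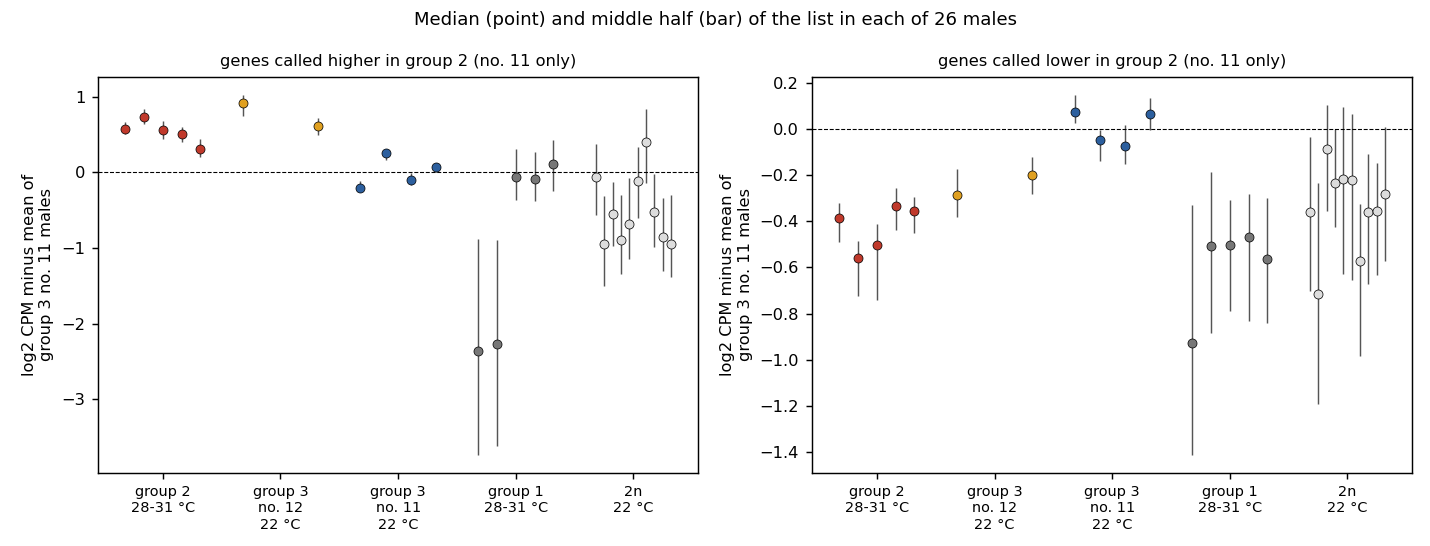
Median (point) and middle 50% (bar) of the log2 CPM difference from the mean of number 11 males of group 3, for the 682 genes called higher (left) and the 85 called lower (right), in each of 26 males. In the left panel 1 number 12 male at 22 °C (0.92) lies above the range of group 2 (0.30 to 0.73) and the other (0.61) within it. The highest diploid male, at 0.40, also lies within that range, and 2 group 1 males lie below -2. Number 11 males of group 3 define 0 and took part in choosing the genes, so these values only describe the males.

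Number 12 and number 11 males of group 3 were both at 22 °C, and a direct comparison of 2 with 4 males called 1987 genes higher (5.25%) and 108 lower (0.285%) in number 12 males, of 37829 tested (edgeR, adjusted p under 0.05). The median absolute log2 fold change of called genes was 0.67, against 0.17 for all genes. The comparison shares its 4 number 11 males with the warm comparison above. For the 682 genes higher in group 2, the median log2 fold change was 0.53 for group 2 over number 11 males, 0.75 for number 12 over number 11 males (680 genes tested) and 0.23 for group 2 over all of group 3. For the 85 lower genes these medians were -0.44, -0.28 and -0.36. Group 2 set against number 12 males alone, 5 against 2, had 0 called genes of 38441 tested in edgeR and 4210 at an unadjusted p under 0.05. With 2 males on 1 side, this fit cannot show that the 2 sets are alike. This fit was added after the data were seen and other tools were not run on it. What the number stands for is not given, so whatever goes with it cannot be told apart. Genes holding 50% of the counts were 1838 and 1997 in number 12 males and 2083 to 2389 in number 11 males, and TMM factors were 0.897 and 0.965 in number 12 males and 0.985 to 1.11 in number 11 males. The part of this difference in library make-up in the result was not tested. Without group 3 replicate 1, the count for number 12 against number 11 was 125, and without replicate 3 it was 1069.

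The count of 767 in number 11 males also hung on single males, as shown by the plot of calls with each male left out. Without group 3 replicate 3 it was 0 and without replicate 5 it was 0 (edgeR, with 4366 and 7351 genes at an unadjusted p under 0.05), and without replicate 6 it was 41. It was 1457 without group 3 replicate 4, the number 11 male with the highest median of the higher list (0.25). On the warm side it was 94 without replicate 1, 131 without replicate 2, 251 without replicate 3, 778 without replicate 4 and 1345 without replicate 5. Fold changes moved less than the counts. With a male left out, the median log2 fold change was 0.462 to 0.601 over the higher list and -0.474 to -0.385 over the lower list. The lists were chosen on these same males, so these medians only describe them.

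**Figure D5:**
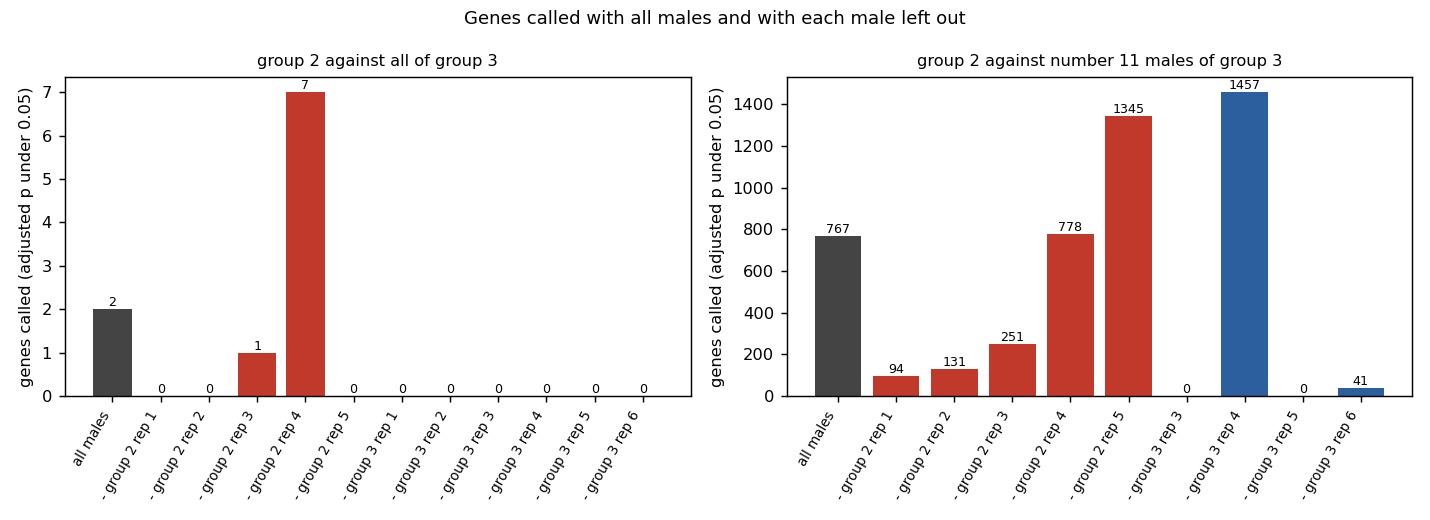
Genes called (bars from 0, adjusted p under 0.05, edgeR) with all males and with each male left out, for group 2 against all of group 3 (left, 0 to 7 calls with a male left out) and against number 11 males (right, 0 to 1457). Red bars leave out a group 2 male and blue bars a group 3 male.

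On 3 chromosomes 1 or 2 males deviated from the rest, and their part in the group difference there was not tested. The median log2 fold change of group 2 over group 3 was 0.16 on chromosome 22 (664 genes), -0.10 on chromosome 29 (517 genes) and 0.06 on chromosome 47 (352 genes), against -0.03 to 0.04 on the other 47. With number 11 males alone these medians were 0.16, -0.11 and -0.02, against -0.06 to 0.05 on the other 47, so chromosome 47 lay within their range. On chromosome 22, group 2 replicates 2 and 5 deviated by 0.34 and 0.30 from the mean of the 11 males (median over 262 genes above 3 log2 CPM, less that over all such genes), and the other 9 males lay between -0.13 and 0.01. On chromosome 29, group 2 replicate 3 was at -0.57 (233 genes) and the other 10 males at 0.05 to 0.08. On chromosome 47, group 3 replicate 2 was at -0.49 (192 genes) and the other 10 at 0.01 to 0.07. Neither of the 2 called genes lies on these chromosomes.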

How the data were processed

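Testis RNA of gibel carp was enriched for poly(A) transcripts and sequenced as strand-specific 150 bp read pairs, 1 library per male, per the labels' protocols. The deposited values are raw counts per gene, made with featureCounts 2.0.6 over exons in reverse-stranded mode (setting 2), with no minimum mapping quality (0), on goldfish annotation ASM336829v1 release 104, per the file headers. The submitters' processing notes also name cutadapt 4.3, STAR 2.7.3a and Picard 2.25.6. How reads of near-identical copies and the molecular identifiers were handled was not given in these sources, so paralogs may share or lose reads. The gibel carp gene table (98729 genes) matched 0 of 62131 IDs.

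Each comparison was fitted alone with edgeR 4.0.16 (R 4.3.3), TMM normalization, the filter on low counts (minimum count 10), robust quasi-likelihood tests across all genes and Benjamini-Hochberg adjustment. Standard errors and 95% intervals came from the F statistic. CPM values use TMM-scaled totals. Lists by male used log2 CPM (prior count 2, 26 libraries). Measures with 1 value per male had exact two-sided permutation tests over 462 splits, where the smallest possible p is 0.00216, adjusted over 7 measures. Scripts were tested on simulated data. No libraries were identical (the closest of 25 replicate pairs had a chi-square of 4.23 per gene). Alternatives included DESeq2 1.42.0 and limma 3.58.1.

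The rule for named genes was the 2 lowest p in each direction at a mean log2 CPM of at least 0. The called lower gene was under this level and takes the place of the rule's other lower gene. The comparison, its number 11 repeat, the 3 chromosomes and the lists were chosen with earlier results of these data known. The design's marker lists could not be used.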

Additional observations from a re-analysis of the deposited data

Results flagged for a closer look

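Of 40 sets of values within group 2 or group 3 tested for a single outlying male, 3 had one. The test's rate by chance, about 1 in 20, does not apply to all of these sets. The chromosomes and lists were chosen with earlier results of these data known, and the genes were picked for a low p. Group 2 replicate 5 needed 2170 genes to hold 50% of its counts, against 2034 to 2055 in the other 4 group 2 males. Group 2 replicate 3 had a median deviation of -0.566 log2 on chromosome 29, against 0.05 to 0.06 in the other warm males. Group 3 replicate 2 had one of -0.493 log2 on chromosome 47, against 0.03 to 0.07 in the other group 3 males. Their part in the differences between groups was not tested. Counts of called genes without these chromosomes or males are among the alternatives.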

How the results depend on the processing

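For group 2 against all of group 3, the main count of 2 was 2 with RLE normalization, 3 with no filter and 2 with chromosomes 22, 29 and 47 left out. It was 46 with DESeq2, and 0 with upper quartile normalization, a stricter filter (mean log2 CPM 1 or more), limma-voom with or without sample weights, the legacy dispersion, all 26 libraries in a 4-group model or group 3 limited to number 12 (1074 to 5592 genes at an unadjusted p under 0.05), and 0 to 7 with a male left out. It was 820 with the library number as a term, a fit that sets group 2 against the number 11 males. For number 11 males, the count of 767 was 1253 with upper quartile normalization, 494 with no filter, 1557 with DESeq2, 1204 with limma-voom with sample weights, 1903 at an adjusted p under 0.1, 0 with group 3 limited to replicates 4 and 6 (4994 at an unadjusted p under 0.05, added after seeing the data) and 0 to 1457 with a male left out. For number 12 against number 11, the count of 2095 was 1980 to 2315 under other tools, normalization, filter or chromosomes, and 125 to 2934 with a male left out, where a lone number 12 male is assumed to vary like the others. The cause of these moves was not tested. Replicate numbers were shared only as numbers: deviations from the group means correlated above 0.1 in 1 of 5 pairs, and 1 of 5 group 2 males correlated best with its own number. With a replicate block the counts were 0 with all males (3037 at an unadjusted p under 0.05) and 177 with number 11. The intervals inside 2-fold numbered 27135 of 27379 genes under that stricter filter on level and 31740 of 42352 in the 4-group model, and 34859 to 35596 under the other 13 alternatives. The mitochondrial difference was -0.0964 to -0.0543 percentage points with a male left out (exact permutation adjusted p 0.194 to 0.511) and -0.0959 with number 11 males. The 4 named genes kept their direction under each alternative that tested them. They were picked for a low p in these 11 males and their groups do not overlap, so this is no independent support. ENSCARG00000032792 and ENSCARG00000002249 were not tested under the stricter filter. Depth limits genes of a mean log2 CPM under 0, where the median 95% interval reached 0.55 log2 to either side.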
